A study of Mus musculus with 4 samples.

Results

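The 6 phospholipase A2 and acyl-protein thioesterase genes followed here were measured in the testis of Tslc1+/+ and Tslc1-/- mice, on every probe set, bright or dim, whose platform annotation names that gene alone. They were Pla2g12a, Pla2g10, Pla2g4a and Pla2g6 among the phospholipases A2 and Lypla1 and Lypla2 among the thioesterases. They held 11 of the 12422 probe sets of the array that are not controls: 5 for Lypla1, 2 for Pla2g12a and 1 for each of the other 4 genes. The 6 genes were selected on measured values of this same comparison, the change between the genotypes and the agreement of probe sets of one gene. Their changes are therefore given as a description. Whether a member passed the fit across all probe sets is stated beside the share of all probe sets that did, and supports nothing.

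RNA was hybridised to 4 Affymetrix Mouse Genome U74A version 2 arrays, 2 of Tslc1+/+ and 2 of Tslc1-/- mice. All were testis of 16-week-old C57BL/6J males. Tslc1, now named Cadm1, encodes an immunoglobulin superfamily adhesion molecule. The labels give neither the deleted part of the gene nor whether an array held 1 animal or a pool, so the spread between arrays of a genotype may be technical. A signal is the brightness of a probe set after scaling each array to a common target, and a change is the difference in mean log2(signal + 50), Tslc1-/- minus Tslc1+/+, which understates changes of dim probe sets.

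Phospholipases A2 cut the fatty acid from the middle position of a membrane phospholipid and leave a lysophospholipid. When that fatty acid is arachidonic acid it can feed the synthesis of prostaglandins and leukotrienes. Secreted forms such as Pla2g12a and Pla2g10 act outside the cell or in secretory granules, Pla2g4a is the calcium-dependent cytosolic form that favours arachidonic acid, and Pla2g6 is a calcium-independent cytosolic form. In the male germ line, Pla2g10 protein is known from the sperm acrosome and Pla2g6 from mutant males with poorly motile sperm. Lypla1 and Lypla2, also called acyl-protein thioesterases, take palmitate off membrane-anchored proteins and were first described as lysophospholipases.

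As a check of the labels, the Cadm1 probe set 93604_f_at read 3960 and 3925.2 on the Tslc1+/+ arrays against 443.5 and 444.9 on the Tslc1-/- arrays. The median signal per array was 361.5 to 378, and log2 signals of any pair of arrays correlated across probe sets with r from 0.93 to 0.941. Among germ cell markers, Tnp2 read 94751.5 to 136860.5 and Ldhc 59745.9 to 69298.6 over the 4 arrays. Not all listed markers were bright: Sycp3 read 6.8 to 20.9, and Prm2 read 152.5 to 396.3 on its brightest probe set. Of 12 round and elongating spermatid marker genes, 7 fell in Tslc1-/- and none rose (limma, Benjamini-Hochberg adjusted p under 0.05). The marker lists were drawn up with earlier results of these data known, so such counts are a description. Among all tested probe sets, 0.84% fell and 0.238% rose, and of 5 tested meiotic germ cell marker genes 1 fell and none rose. The summed signal of the 12 spermatid markers ran from 593950 to 613860 in Tslc1+/+ and from 404830 to 422820 in Tslc1-/-. Fewer cells of a type and less RNA per cell cannot be told apart in whole testis. The ratio of 3′ to 5′ control signals, a sign of RNA integrity, was 1.2 and 1.43 in Tslc1+/+ against 1.56 and 1.73 in Tslc1-/- for beta-actin, and 1.06 and 1.12 against 0.953 and 0.925 for Gapdh. For the transferrin receptor it was 2.37 and 5.65 in Tslc1+/+ against 5.91 and 9.38 in Tslc1-/-.

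Pla2g12a, the secreted group XII enzyme on chromosome 3, gave opposite readings on its probe sets. On 104343_f_at the signal was 855.9 and 686.7 on the Tslc1+/+ arrays against 12501.9 and 13703.2 on the Tslc1-/- arrays. The genotypes were far apart there, with means of 771.3 ± 120 and 13103 ± 849 (SD, n = 2), a ratio of 17.0, and the log2 change was 4.01 ± 0.15 (SE). On 104342_i_at it was 302.2 and 281.4 on the Tslc1+/+ arrays against 42.5 and 43.9 on the Tslc1-/- arrays, the reverse order. These arrays had means of 291.8 ± 14.7 and 43.2 ± 0.990 (SD, n = 2), and the log2 change was -1.87 ± 0.53 (SE). Both probe sets were designed on the same expressed sequence tag, so they share a target by annotation.

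The names of these probe sets carry suffixes that mark departures from the usual probe choice. In the array's naming, f stands for probes that match a family of similar sequences and i for an incomplete set of probes. The mean signal of 104342_i_at over the 4 arrays was 167.5, under the 200 required for testing, and both of its Tslc1-/- signals lay below the first quartile of all probe sets, which was 101 to 108 on the 4 arrays. As a class, 8 of 669 f probe sets passed the test (1.2%), 2 of them higher, beside 65 of 6354 (1.02%) without a suffix. The 8 include 104343_f_at itself and Cadm1 93604_f_at, and a class share does not show what bound to a single probe set. Whether another member of such a family hybridised to 104343_f_at was not tested.

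**Figure D1:**
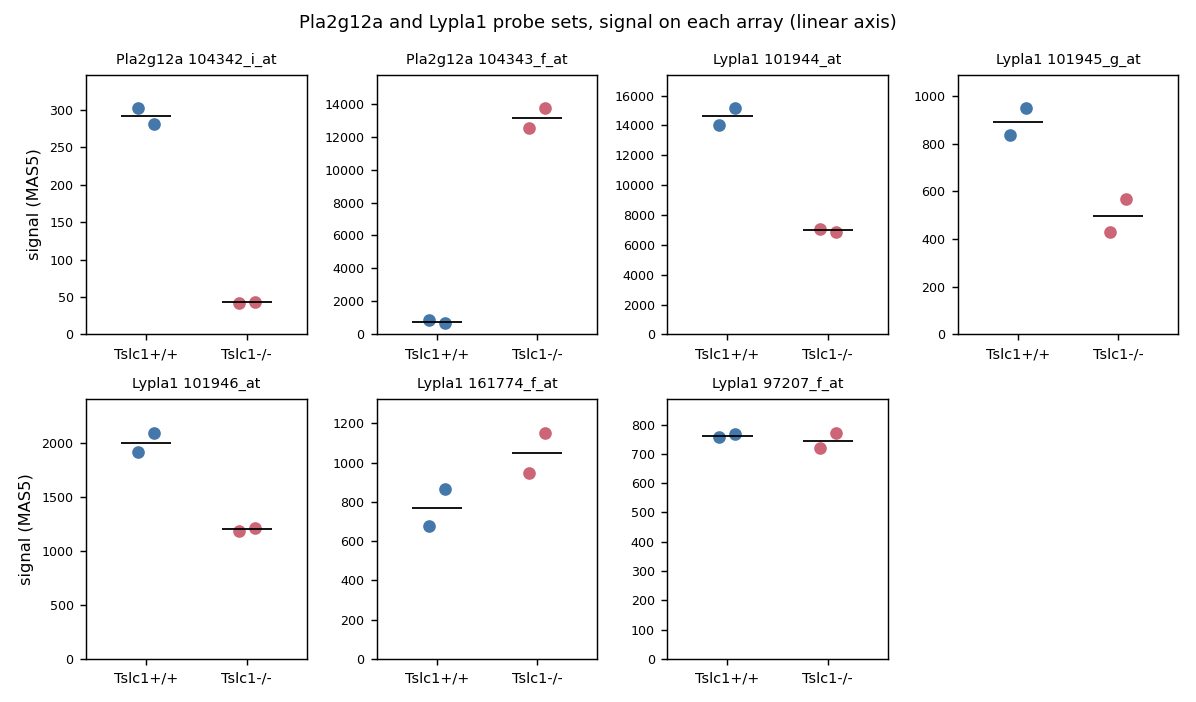
Signal (MAS5, linear axis from 0, a separate scale in each panel) of the 2 Pla2g12a and 5 Lypla1 probe sets on each array, with points for arrays and lines for genotype means. Pla2g12a is high in Tslc1-/- on 104343_f_at and low on 104342_i_at, and 3 Lypla1 probe sets are lower in Tslc1-/- while 161774_f_at is higher and 97207_f_at overlaps.

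The gap between the Pla2g12a changes was 5.88 on the log2 scale, a value of the kind the genes were picked on. Its size rests in part on the dim reading of 104342_i_at, whose change was -2.73 at a pseudocount of 1. Opposite signs were found in 54% of the 2073 genes with 2 or more single-gene probe sets, dim ones included. The median gap over those genes was 0.49 on the log2 scale, so a difference in sign alone can be small.

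RefSeq promoter windows of 300 bases, 250 before and 50 after a transcription start, were found for 5 of the 6 genes, all but Lypla1. Those of Pla2g12a and Pla2g6 are shown as the sequence context of the member whose reading moved most and of the cytosolic enzyme with a single clear probe set. They are in GRCm38.p6, at chr3:129880934-129881233 (plus strand) for Pla2g12a and chr15:79328322-79328621 (minus strand) for Pla2g6, and read 5′ to 3′. The start used for Pla2g12a lies 2578 bases inside the gene's RefSeq span. Capitals mark matches, on either strand, to TGACG (the half-site of the cyclic AMP response element), to GGGCGG (the GC box), to CCAAT (the CCAAT box) or to TATAAA (the TATA box).
Pla2g12a: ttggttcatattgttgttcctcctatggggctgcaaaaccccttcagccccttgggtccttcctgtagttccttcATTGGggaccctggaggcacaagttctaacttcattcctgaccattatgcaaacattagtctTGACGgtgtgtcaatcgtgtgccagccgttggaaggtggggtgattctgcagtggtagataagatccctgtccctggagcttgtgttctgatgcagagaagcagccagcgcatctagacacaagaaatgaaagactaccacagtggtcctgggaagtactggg
Pla2g6: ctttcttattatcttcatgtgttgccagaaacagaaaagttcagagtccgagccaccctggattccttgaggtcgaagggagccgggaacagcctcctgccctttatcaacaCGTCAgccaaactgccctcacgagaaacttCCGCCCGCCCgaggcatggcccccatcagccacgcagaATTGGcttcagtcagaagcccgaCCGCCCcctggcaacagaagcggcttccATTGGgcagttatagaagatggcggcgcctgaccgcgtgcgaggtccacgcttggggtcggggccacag

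The Pla2g12a window held 1 TGACG match and 1 CCAAT match. The Pla2g6 window held 1 TGACG match, 2 CCAAT matches and 3 GGGCGG matches, 2 of which overlap. Of 32851 RefSeq windows of the same length, 20.8% hold TGACG, 37.4% hold CCAAT, 35.7% hold GGGCGG and 13.6% hold TATAAA, so each match is common. A match describes the letters of the window and not a bound factor.

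Lypla1, the thioesterase gene on chromosome 1, read lower in Tslc1-/- on 3 of its 5 probe sets. On 101944_at the signal was 14061.4 and 15139 on the Tslc1+/+ arrays against 7067.6 and 6873.5 on the Tslc1-/- arrays. The means were 14600 ± 762 and 6970.6 ± 137 (SD, n = 2), so the Tslc1-/- signal was 2.09-fold lower, and the log2 change was -1.06 ± 0.10 (SE). The probe set 101945_g_at was designed on the same sequence, in a region shared by probe sets, and read 836.2 and 947.4 on the Tslc1+/+ arrays against 431.3 and 565.9 on the Tslc1-/- arrays. Its log2 change was -0.79 ± 0.26 (SE). The third, 101946_at, comes from an expressed sequence tag and read 1915 and 2097.6 on the Tslc1+/+ arrays against 1182.3 and 1218.6 on the Tslc1-/- arrays, and the log2 change was -0.72 ± 0.17 (SE). On all 3, both Tslc1-/- arrays lay below both Tslc1+/+ arrays, while the genotypes did not overlap on 40.0% of all tested probe sets.

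The 2 other Lypla1 probe sets, both of the f class, did not read lower. On 97207_f_at the signal was 755.9 and 769.1 on the Tslc1+/+ arrays against 718.4 and 771.8 on the Tslc1-/- arrays, and the genotypes overlapped. On 161774_f_at it was 677.7 and 862.6 on the Tslc1+/+ arrays against 944.2 and 1151.4 on the Tslc1-/- arrays, with both Tslc1-/- arrays above, and the log2 change was 0.42 ± 0.23 (SE). From 101944_at to 161774_f_at the changes spanned 1.48 on the log2 scale. A gene with 5 probe sets has more room for such a gap than one with 2, and the agreement of probe sets was among the values the genes were picked on. The lower summed spermatid marker signal and the higher 3′ to 5′ control ratios of beta-actin and the transferrin receptor moved with the lower Lypla1 readings, and their part in them was not tested.

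Lypla2, the second thioesterase gene, on chromosome 4, read 1276.4 and 1662.7 on the Tslc1+/+ arrays against 1454.1 and 1858.3 on the Tslc1-/- arrays on its only probe set, 98429_at. The genotypes overlapped, and the log2 change was 0.17 ± 0.20 (SE). The spread within either genotype, 273 and 286 (SD, n = 2), exceeded the difference between the means of 1469.6 and 1656.2.

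Pla2g6, on chromosome 15, read 6161.9 and 5971.1 on the Tslc1+/+ arrays against 5375.6 and 4764.8 on the Tslc1-/- arrays on 97965_at. Both Tslc1-/- arrays lay below both Tslc1+/+ arrays, with means of 6066.5 ± 135 and 5070.2 ± 432 (SD, n = 2), and the log2 change was -0.26 ± 0.12 (SE). Pla2g10, on chromosome 16, read 1479 and 1933.1 on the Tslc1+/+ arrays against 1192.4 and 1953 on the Tslc1-/- arrays on 161034_at. Its Tslc1-/- arrays lay on either side of both Tslc1+/+ arrays, and the log2 change was -0.14 ± 0.24 (SE). Pla2g4a, on chromosome 1, was dim on 99513_at, at 120.2 and 41.2 on the Tslc1+/+ arrays against 23 and 94.5 on the Tslc1-/- arrays. Its 4 signals interleave, and at a mean of 69.725 no direction can be read.

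**Figure D2:**
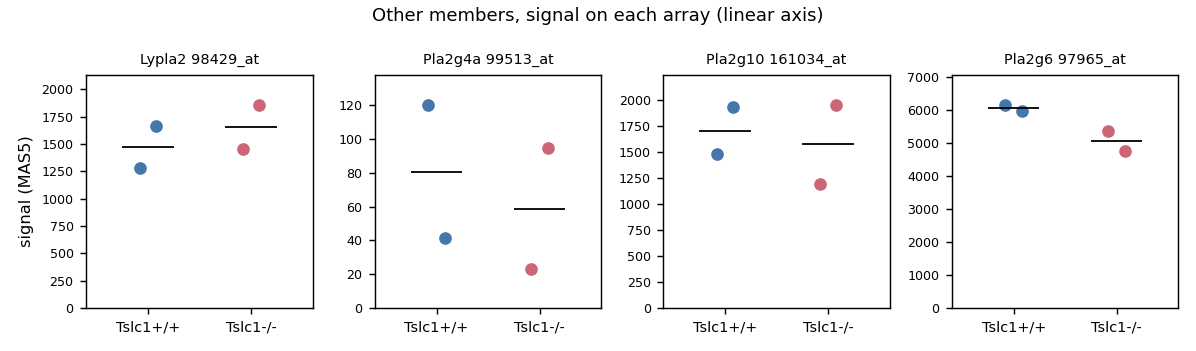
Signal (MAS5, linear axis from 0, a separate scale in each panel) of the Lypla2, Pla2g4a, Pla2g10 and Pla2g6 probe sets on each array, with points for arrays and lines for genotype means. The genotypes overlap for Lypla2, Pla2g4a and Pla2g10, and both Pla2g6 arrays of Tslc1-/- lie below those of Tslc1+/+.

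Over the 11 member probe sets, both Tslc1-/- arrays lay below both Tslc1+/+ arrays on 5, above them on 2, and overlapped on 4. Among all 12422 probe sets, 37.7% did not overlap, and among tested ones 40.0%, beside 7 of 11 and 6 of 9 here. In the fit across 7975 probe sets, 2 of the 9 tested member probe sets passed, Pla2g12a 104343_f_at higher and Lypla1 101944_at lower, while 1.08% of all tested probe sets passed, 0.238% higher and 0.84% lower (limma, Benjamini-Hochberg adjusted p under 0.05). Since the genes were picked on this comparison, nothing is read from that difference. The median log2 change of the 9 was -0.14 and that of all tested probe sets 0.02, and the median size of change was 0.42 beside 0.22. With a spread estimate that ignored signal, 0 of all tested probe sets passed (limma), and 638 had an unadjusted p under 0.05.

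**Figure D3:**
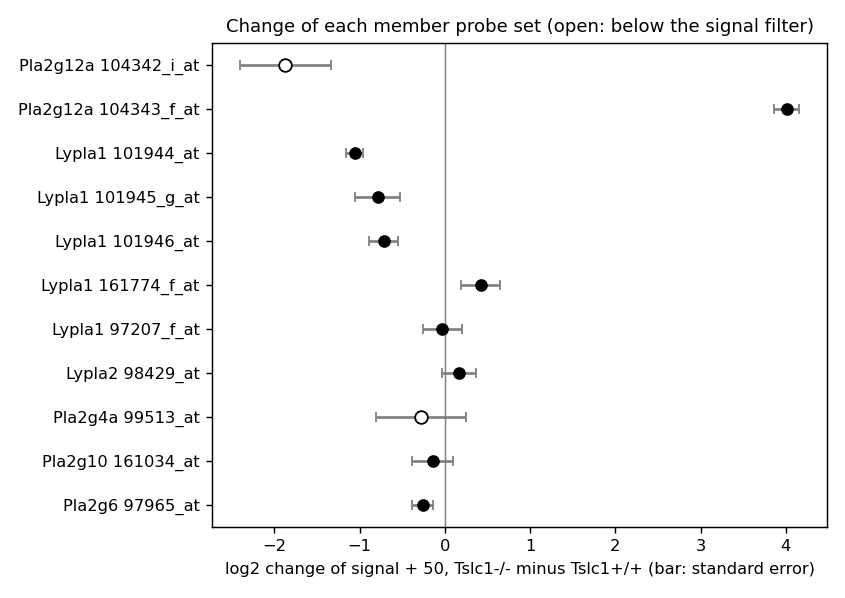
Log2 change of each of the 11 member probe sets, Tslc1-/- minus Tslc1+/+, with its limma standard error, open points for the 2 below the signal filter. The Pla2g12a probe sets lie at 4.01 and -1.87, and those of Lypla1 from -1.06 to 0.42.

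**Figure D4:**
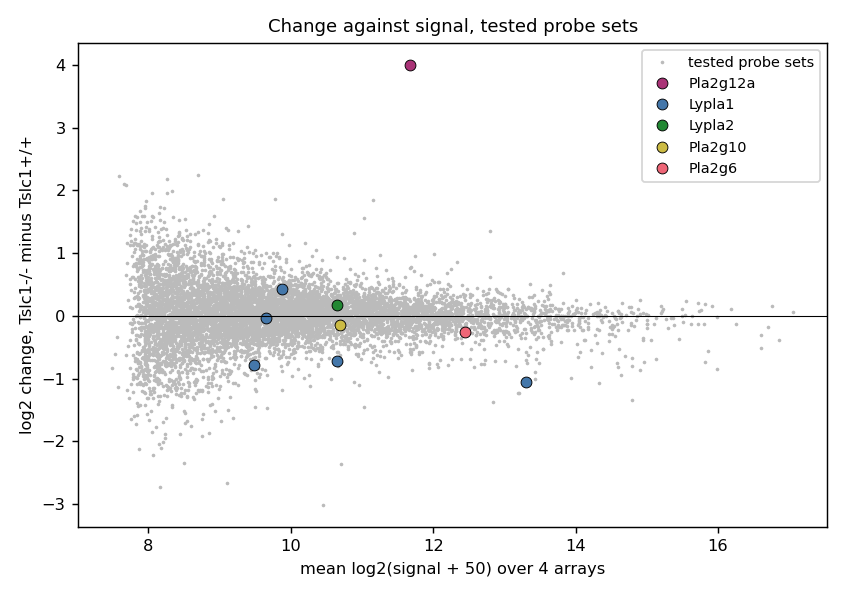
Log2 change against mean log2(signal + 50) over 4 arrays for the 7975 tested probe sets (grey) and the 9 tested member probe sets (coloured by gene). Pla2g12a 104343_f_at lies above all other points, and Lypla1 101944_at lies at -1.06.

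Profiles over the 4 arrays were compared by Euclidean distance after centring each on its mean log2(signal + 50). Those nearest to Lypla1 101944_at were Clpb (distance 0.06), which encodes a mitochondrial disaggregase, Reep6 (0.10), an endoplasmic reticulum protein gene, and the kinase gene Jak3 (0.12). Clpb read 15281.2 and 15941.8 on the Tslc1+/+ arrays against 7722.4 and 7694.8 on the Tslc1-/- arrays, a change of -1.01 in log2 signal, beside -1.07 for Reep6 and -1.05 for Jak3. With 2 arrays a genotype, such a distance mostly restates how alike 2 changes are, so these neighbours add little to the changes themselves. Pla2g12a 104343_f_at had the largest rise of all tested probe sets, and no profile compared with it lay close to its own. The nearest, Xpot, Rex1bd and Ramp3, were at distances of 1.77, 1.79 and 1.86 and had log2 changes of 2.24, 2.24 and 2.18. All were dim in Tslc1+/+, at 32.1 to 152.1, and Xpot reached the filter, with a mean of 202.65, only through its Tslc1-/- arrays. Rex1bd passed (adjusted p = 0.0206 in limma), while Xpot and Ramp3 did not (adjusted p = 0.403 and 0.0989 in limma). Nearest to Pla2g12a 104342_i_at were Tenm4 (0.19), Ube2f (0.20) and Adcy3 (0.27). These 3 read 71.3 to 129.3 in Tslc1-/- and did not pass (adjusted p = 0.448, 0.267 and 0.179 in limma).

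The surrounding lipid pathways were then read from 6 gene lists, each gene by its brightest probe set. Of 57 tested genes none passed, and 5 had an unadjusted p under 0.05 (limma). The 57 had a median log2 change of 0.07, with 31 changes above 0 and 26 below. Among all 7975 tested probe sets 1.08% passed, and 799 had an unadjusted p under 0.05 (limma).

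Other phospholipases A2 and the proteins that bind or activate them had 8 tested genes, with a median change of 0.08. Pnpla2, the main triglyceride lipase of fat stores, read 16956.3 and 15045.5 on the Tslc1+/+ arrays against 17970.8 and 15142 on the Tslc1-/- arrays, and the genotypes overlapped. Pla2g7, the secreted acetylhydrolase of platelet activating factor, read 545.1 and 498.4 on the Tslc1+/+ arrays against 663.9 and 750.2 on the Tslc1-/- arrays, a change of 0.40 in log2 signal (adjusted p = 0.681 in limma). The receptor gene of secreted phospholipases A2, Pla2r1, was below the signal filter. It read 204.8 and 73.5 on the Tslc1+/+ arrays against 9.8 and 21.1 on the Tslc1-/- arrays, and is named after its values were seen. Pla2g2a, another gene of this list below the filter, went the other way in its means, 46.1 in Tslc1+/+ and 168 in Tslc1-/-, with overlapping signals.

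Other lysophospholipases and phospholipases had 10 tested genes, with a median change of 0.12. Ddhd1, an intracellular phospholipase A1, read 1456.2 and 1395.3 on the Tslc1+/+ arrays against 2087.3 and 2121.9 on the Tslc1-/- arrays. The genotypes were apart, but the log2 change of 0.55 did not pass (adjusted p = 0.202 in limma). Plcb1, a phospholipase C activated by G proteins, had a change of 0.31 (adjusted p = 0.438 in limma), and its other probe sets had changes of -0.53 and -0.07.

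Eicosanoid synthesis had 13 tested genes, with a median change of -0.15. Ptgds, the lipocalin-type prostaglandin D synthase, read 7173.6 and 7378.3 on the Tslc1+/+ arrays against 7541.7 and 5755 on the Tslc1-/- arrays, an overlap. Ptgis, the prostacyclin synthase, read 658.2 and 676 on the Tslc1+/+ arrays against 1073.5 and 902.8 on the Tslc1-/- arrays, a change of 0.53 in log2 signal that did not pass (adjusted p = 0.477 in limma). Receptors for eicosanoids and platelet activating factor, with the enzymes that handle them, had 6 tested genes and a median of -0.04. Pafah1b3, a catalytic subunit of the intracellular acetylhydrolase of platelet activating factor, had a change of 0.47 (adjusted p = 0.533 in limma) and Pafah1b2, the other catalytic subunit, one of -0.20 (adjusted p = 0.62 in limma), while its other probe sets were at 0.25 and 0.28.

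Lysophospholipid reacylation and signalling, which puts back the fatty acid that phospholipases A2 remove or reads the lysophospholipid, had 11 tested genes and a median change of 0.20. Agpat1 and Agpat3, acyltransferase genes of this list, read in opposite directions. Agpat1 was at 3915.1 and 3777.8 on the Tslc1+/+ arrays against 5498.3 and 4925.8 on the Tslc1-/- arrays, a change of 0.43 in log2 signal (adjusted p = 0.177 in limma). Agpat3 was at 7177.1 and 7009.2 on the Tslc1+/+ arrays against 4783.1 and 5831.7 on the Tslc1-/- arrays, a change of -0.42 in log2 signal (adjusted p = 0.198 in limma). The genotypes did not overlap for either, as for 40.0% of all tested probe sets, and neither passed.

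Palmitoylation enzymes, which attach the palmitate that Lypla1 and Lypla2 remove, had 9 tested genes with other depalmitoylating enzymes, and a median change of -0.04. Zdhhc9, a palmitoyltransferase of Ras proteins, read 1129.9 and 961.9 on the Tslc1+/+ arrays against 827.6 and 1013.4 on the Tslc1-/- arrays, and overlapped. Zdhhc16 had a log2 change of 0.33 (adjusted p = 0.776 in limma).

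**Figure D5:**
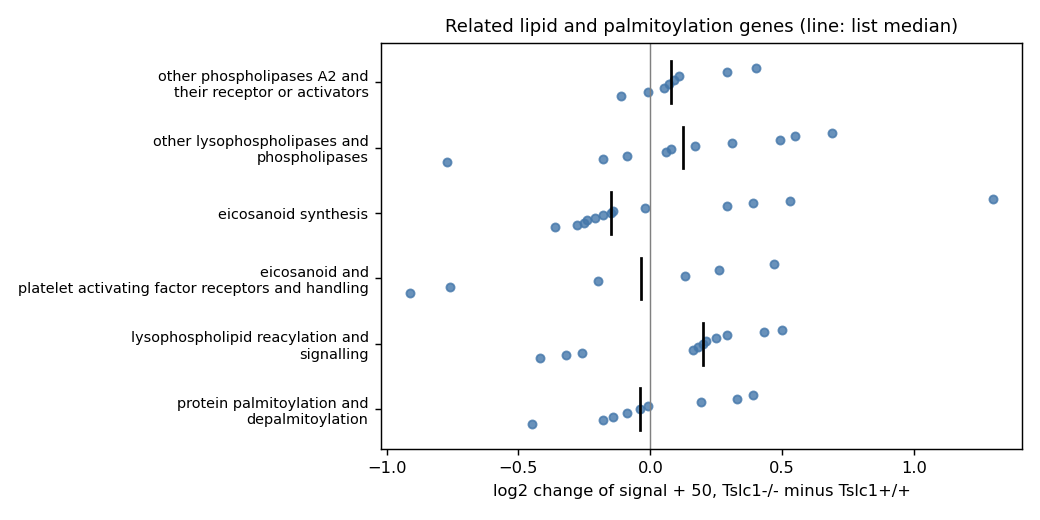
Log2 change, Tslc1-/- minus Tslc1+/+, of each tested gene of the 6 related lists (points) with the list median (line). Medians lie between -0.15 and 0.20, and none of the genes passed the test.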

How the data were processed

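The file holds 1 linear intensity per probe set and array, as deposited. The authors obtained these intensities with MAS5, with global scaling of every array to a target of 1000, per the labels' design text, so a change in total RNA cannot be seen. Neither detection calls nor single probes were analysed here. Gene names are those of the platform annotation, symbols being updated by Entrez identifier with RefSeq genes of GRCm38.p6. Of 12488 probe sets, 66 controls were left out, and 10833 of the other 12422 name 1 gene, of which 10817 matched. Tests used limma 3.58.1 (R 4.3.3) on log2(signal + 50) with an intensity trend, over 7975 probe sets with a mean signal of at least 200, Benjamini-Hochberg adjusted, threshold 0.05, two-sided. Standard errors of dimmer probe sets come from a fit of all 12422. The fit was tested on simulated data drawn from its own model of the spread, which cannot show whether the intensity trend suits these arrays. Precision is limited by having 2 arrays a genotype: the smallest two-sided p of an exact permutation test is 0.333.

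The members and gene lists were chosen with earlier results of these data known. Named are all members, the 3 nearest profiles of each member probe set changed by at least 1 on the log2 scale, the gene of each list with the smallest p and the brightest one, and the chromosome neighbours of Pla2g12a. The marker genes of the tissue check, Pla2r1 and Pla2g2a are named beside this rule. Alternatives were other pseudocounts, signal filters and normalizations, no intensity trend, no suffixed probe sets, the replicate block, a gene's mean over its tested probe sets in place of the brightest, and each array left out.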

Additional observations from a re-analysis of the deposited data

How the results depend on the processing

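The 86 calls over all tested probe sets became 0 without the intensity trend (638 at an unadjusted p under 0.05, limma) and, with 1 array left out, 42 or 37 when it was the first or the second Tslc1+/+ replicate and 41 or 43 when it was the first or the second Tslc1-/- one, where a lone array is assumed to vary like the others. The 2 member calls, on values the genes were picked on and so no evidence of stability, became 0 without the trend and 1 without suffixed probe sets, which drops Pla2g12a 104343_f_at. Deviations of same-numbered arrays did not correlate across tested probe sets (r = -0.001), which does not show whether those arrays were handled together. With the replicate block the counts were 239 over all probe sets, 3 among members (Lypla1 101946_at added), 1 among the lipid pathway genes (Agpat3) and 1 among the chromosome neighbours of Pla2g12a (Gar1). No other alternative gave a pathway or neighbour call. The changes of Pla2g12a 104343_f_at ran from 3.86 to 4.16, of Pla2g12a 104342_i_at from -2.73 to -1.83 (lowest at a pseudocount of 1, and -2.38 at 16), and of Lypla1 101944_at from -1.11 to -1.01. Of 99 member values under an alternative, 7 took the other sign or reached 0, on Lypla1 97207_f_at, Lypla2, Pla2g4a and Pla2g10.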

Other observations

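The 5 nearest genes on each side of Pla2g12a on chromosome 3 that have a single-gene probe set were read for position. Of these 10, 5 were bright enough to test, and none passed, beside 1.08% of all tested probe sets. An unadjusted p under 0.05 (limma) was found for 799 of the 7975 tested probe sets and for 1 of these neighbours. That was Gar1, a protein gene of small nucleolar ribonucleoprotein particles, which read 4375.6 and 4272.1 on the Tslc1+/+ arrays against 2622.4 and 3150.3 on the Tslc1-/- arrays, a change of -0.58 in log2 signal (adjusted p = 0.0989 in limma). The other tested neighbours were Elovl6, a fatty acid elongase gene (-1.07, with signals of 39.8 and 277.5 in Tslc1-/-), Ostc (0.01), the transcription factor gene Lef1 (0.11) and the mitochondrial enzyme gene Hadh (-0.12). Egf, the epidermal growth factor gene, was below the signal filter at 267.9 and 158.7 on the Tslc1+/+ arrays against 48 and 51.6 on the Tslc1-/- arrays. The dim probe sets of Cfi, Rrh, Casp6 and Sec24b read between 12.8 and 182.5 on all arrays.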
